A study of Mus musculus with 4 samples.

Results

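A group of 8 genes outside glycolysis that are known targets of the hypoxia-inducible factors (HIF) was followed across 4 bulk RNA-seq libraries of murine 4T1 breast cancer cells. They were taken by symbol from a table of 49585 genes and are Vegfa, Adm, Car9, Bnip3, Bnip3l, Ero1l, Mxi1 and Ankrd37. All 8 reached 1 FPKM in 1 or more libraries, as did 12669 genes in all, which are called expressed genes here. FPKM divides the fragment count of a gene, a fragment being a read pair, by gene length and library total, so levels can be set side by side between genes.

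4T1 is a mouse line used as a model of triple-negative breast cancer. The cells were 4T1-HM, a clone with high metastatic capacity, and 4T1-LM, a clone with low metastatic capacity, and each clone was grown from a single cell, so each arm stands for 1 clone and not for a class of cells. Both were cultured for 48 h with DMSO, giving HM_Ctrl and LM_Ctrl, or with 50 μmol/L of the iron chelator deferasirox (DFX) dissolved in DMSO, giving HM_DFX and LM_DFX. The study asked how clones of different metastatic capacity respond to iron chelation. The files hold 1 library for each condition, so no difference below has a replicate check, no p-value is given, and intervals cover counting error alone.

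HIF is a pair of an oxygen-regulated α subunit and the constant partner ARNT. Prolyl hydroxylases that need iron and oxygen mark the α subunit for destruction by VHL, so that low oxygen or loss of iron from these enzymes lets it build up and bind DNA at the short core ACGTG or GCGTG. Its targets cover vessel growth, control of pH, removal of mitochondria and protein folding as well as glycolysis.

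The promoters of the members that differed most between libraries are shown because the core of the HIF site can be looked for in them. The RefSeq table on build GRCm38 (mm10) held 10 windows for 7 of the 8 members, each from 250 bases before to 50 after a transcription start. Bnip3l was not matched. The lines give the 160 bases before the start, 5′ to 3′ on the strand of the gene, with ACGTG or GCGTG on either strand in capitals (CACGT and CACGC when the core lies on the opposite strand). The windows are chr7:138909507-138909666 (minus strand) for Bnip3, chr14:45318573-45318732 (minus strand) for Ero1l, chr8:45999851-46000010 (minus strand) for Ankrd37, chr7:110627497-110627656 (plus strand) for Adm and chr4:43506866-43507025 (plus strand) for Car9.
Bnip3: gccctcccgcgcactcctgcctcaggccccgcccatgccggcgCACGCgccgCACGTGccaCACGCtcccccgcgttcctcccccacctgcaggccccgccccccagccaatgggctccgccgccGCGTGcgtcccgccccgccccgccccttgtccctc
Ero1l: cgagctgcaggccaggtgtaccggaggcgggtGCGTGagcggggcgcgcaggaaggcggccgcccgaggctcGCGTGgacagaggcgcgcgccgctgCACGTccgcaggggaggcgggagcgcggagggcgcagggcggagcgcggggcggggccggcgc
Ankrd37: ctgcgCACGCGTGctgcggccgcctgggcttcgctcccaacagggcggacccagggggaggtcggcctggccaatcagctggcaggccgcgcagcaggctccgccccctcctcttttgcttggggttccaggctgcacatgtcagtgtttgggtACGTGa
Adm: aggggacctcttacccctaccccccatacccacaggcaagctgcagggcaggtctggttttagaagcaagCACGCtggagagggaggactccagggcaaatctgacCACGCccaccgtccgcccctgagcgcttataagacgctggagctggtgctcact
Car9: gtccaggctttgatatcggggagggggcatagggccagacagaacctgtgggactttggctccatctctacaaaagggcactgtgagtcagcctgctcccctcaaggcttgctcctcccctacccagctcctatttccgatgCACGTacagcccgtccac
Bnip3 held 5 matches, of which those at -108 and -107 are the same palindrome read on both strands. Ero1l, listed in RefSeq as Ero1a, held 3. Ankrd37 held 4 in its whole window, with overlapping ones at -155 and -152. Adm held 2 and Car9 held 1, at -18. The window at the upstream start of Vegfa held none and that at a second start held 2, while Mxi1 held none at the first of 3 starts and 1 at each of the others. A match was found in 8 of the 10 windows, against 43.8% of all 32851 promoter windows of the same length, and some windows of 1 gene overlap. The members were picked as known HIF targets and base composition was not matched, so this comparison is a description and not a test. A match is a stretch of letters and not a measured binding site.

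The libraries held between 14363065 and 21883855 fragments, as recovered from the FPKM. The keratins Krt8 and Krt18 and vimentin (Vim) were abundant in all of them, and the summed FPKM of the epithelial markers ran from 533 to 2124. The other epithelial and mesenchymal markers varied widely. Over the libraries Fn1 ran from 271 to 461 FPKM, Krt19 from 46.4 to 103 and Cdh1 from 43.7 to 96.9. Twist1 ran from 21.7 to 31.6 FPKM and Epcam from 13.5 to 29.3. Cldn7 and Zeb1 stayed under 1 FPKM, and Krt5, Cdh2 and Snai2 were at 0. Krt14 was at 2.48 FPKM in HM_Ctrl against 54.3 in LM_Ctrl. The epithelial sum was lower with DFX in both clones (1590 in HM_Ctrl and 533 in HM_DFX, 2124 in LM_Ctrl against 1035 in LM_DFX), as was the mesenchymal sum. In 4T1-LM Krt19 (46.4 FPKM in LM_Ctrl, 103 in LM_DFX), Fn1 (271 and 357) and, slightly, Twist1 were higher with DFX. The part of these marker changes in the values below was not tested. Markers of endothelium summed to at most 0.203 FPKM. Among the leukocyte markers reported here only Cd68, a lysosomal protein, was expressed, at 12.9 FPKM in HM_Ctrl and 37.4 in HM_DFX, and at 12.3 in LM_Ctrl against 83.1 in LM_DFX, while Cd3e was at 0.

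In 4T1-LM all 8 members were higher with DFX by 2-fold or more, and in 4T1-HM 1 of them was, Ero1l. Folds of this kind are taken on FPKM + 1, and "rose" and "fell" are used here for changes of at least 2-fold on that scale. Among all expressed genes 7.09% rose in 4T1-LM and 6.93% rose in 4T1-HM. No member fell in either clone, where 8.72% of expressed genes fell in 4T1-LM and 12.4% in 4T1-HM. In a bulk library a lower level can come from fewer expressing cells or from less RNA in each, and these cannot be told apart.

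**Figure D1:**
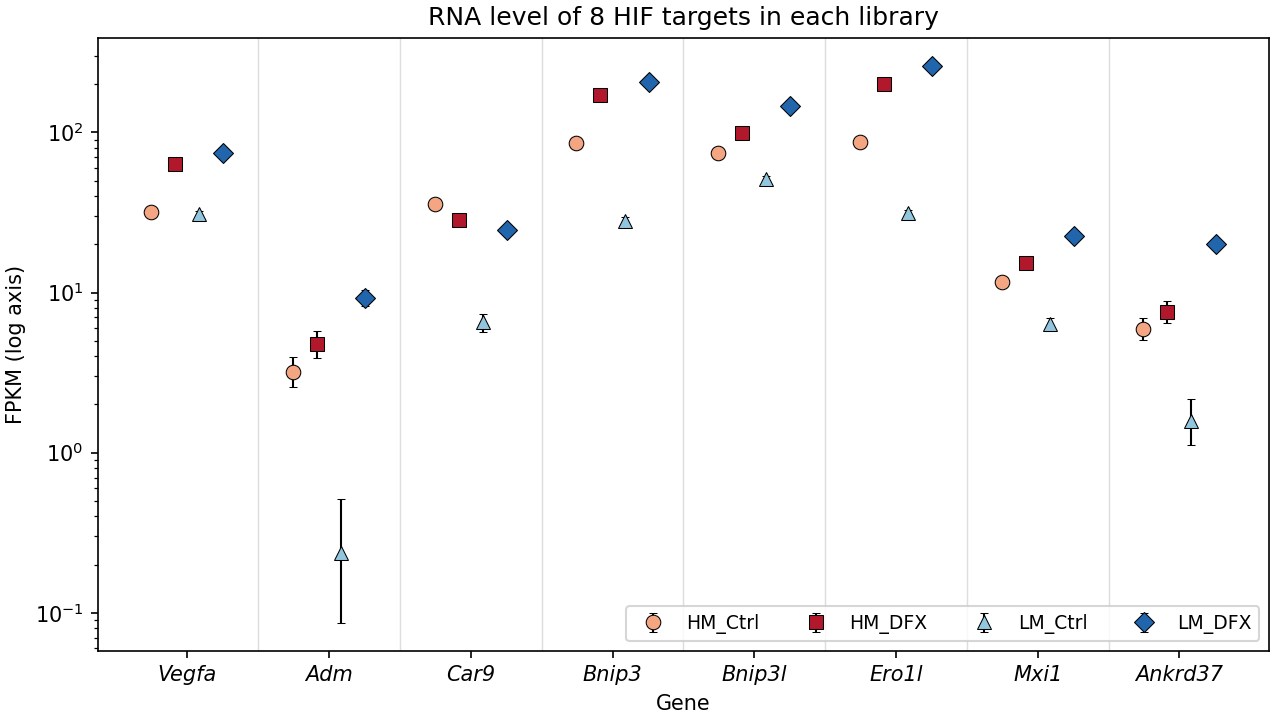
FPKM of the 8 genes (log axis) in HM_Ctrl, HM_DFX, LM_Ctrl and LM_DFX, 1 library each. Bars are exact 95% Poisson intervals of the fragments and cover counting error only. LM_Ctrl is the lowest library for each gene, and LM_DFX the highest for 7 of the 8, Car9 being the exception.

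Vegfa and Adm encode secreted factors that act on blood vessels. Vegfa (ENSMUSG00000023951, chr17:46016993-46032369, minus strand) was at 31.9 FPKM in HM_Ctrl and 63.5 in HM_DFX, and at 30.9 in LM_Ctrl against 74.5 in LM_DFX. The controls of both clones lay together and both DFX libraries lay well above them. The ratio of HM_Ctrl to LM_Ctrl was 1.03, with an interval of 0.972 to 1.10 that includes equality. With DFX Vegfa was 1.99-fold higher in 4T1-HM (1.89 to 2.10), a log2 change of 0.97 that just missed the 2-fold threshold, and 2.41-fold higher in 4T1-LM (2.30 to 2.54). It was the member whose response differed least between the clones, by 0.27 on the log2 scale.

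Adrenomedullin, the peptide made from Adm (ENSMUSG00000030790, chr7:110627661-110629820, plus strand), widens vessels and acts on their endothelium. Adm was the scarcest member in every library, at 3.21 FPKM in HM_Ctrl and 4.77 in HM_DFX, and at 0.236 in LM_Ctrl against 9.26 in LM_DFX. It was almost absent from LM_Ctrl, where the value rests on 6 fragments, against 328 in LM_DFX. The fold in 4T1-LM was therefore large and loosely bounded, at 39.3 (17.9 to 108), and on FPKM + 1 it came to 3.05 on the log2 scale. In 4T1-HM the fold was 1.49 (1.11 to 1.99). HM_Ctrl held 13.6-fold more than LM_Ctrl (6.01 to 38.1).

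Car9 encodes carbonic anhydrase IX, a membrane enzyme that hydrates carbon dioxide outside the cell and helps tumour cells keep their inner pH. Car9 (ENSMUSG00000028463, chr4:43506966-43513729, plus strand) was at 35.6 FPKM in HM_Ctrl and 28.3 in HM_DFX, and at 6.51 in LM_Ctrl against 24.8 in LM_DFX. It differed from the other members in being highest in untreated 4T1-HM and in having no higher value with DFX there. The fold with DFX was 0.794 in 4T1-HM (0.730 to 0.863) and 3.80 in 4T1-LM (3.31 to 4.39). HM_Ctrl exceeded LM_Ctrl by 5.47-fold (4.76 to 6.31), which is 2.29 on the log2 scale of FPKM + 1. Under DFX the clones were within 1.14-fold of each other (1.05 to 1.24). A transcript annotated antisense, Gm12454, shares 214 of the 2304 exon bases of Car9 and was at most 2.54 FPKM. Whether the counting used strand is not given, so reads of such pairs cannot be told apart.

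Bnip3 and Bnip3l encode paralogous proteins of the outer mitochondrial membrane that recruit the autophagy machinery to mitochondria. Bnip3 (ENSMUSG00000078566, chr7:138890836-138909519, minus strand) was at 85.3 FPKM in HM_Ctrl and 171 in HM_DFX, and at 28.0 in LM_Ctrl against 205 in LM_DFX. The low library was LM_Ctrl, and both DFX libraries were far above both controls. The folds with DFX were 2.00 in 4T1-HM (1.92 to 2.09), which is 0.99 on the log2 scale of FPKM + 1 and so just under the threshold, and 7.34 in 4T1-LM (6.87 to 7.84). HM_Ctrl exceeded LM_Ctrl by 3.05-fold (2.84 to 3.28). Of the 31-base words of Bnip3, 57.0% also occur in other annotated genes, so its counts may depend on how shared reads were assigned. The antisense transcript Gm45507 covers 504 of its 2265 exon bases and was at most 3.89 FPKM.

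The paralog Bnip3l (ENSMUSG00000022051, chr14:66985239-67008877, minus strand) was at 74.5 FPKM in HM_Ctrl and 99.4 in HM_DFX, and at 51.3 in LM_Ctrl against 146 in LM_DFX. It was the most abundant member in LM_Ctrl, and its libraries spanned a narrower range than those of Bnip3. With DFX it was 1.33-fold higher in 4T1-HM (1.28 to 1.39) and 2.84-fold higher in 4T1-LM (2.73 to 2.96). The pseudogene Bnip3l-ps, which holds 23.7% of its 31-base words, was at 15.6 FPKM in HM_Ctrl and 21.6 in HM_DFX, and at 10.4 in LM_Ctrl against 31.7 in LM_DFX, the same order of libraries.

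Ero1l encodes the oxidase that passes electrons from protein disulfide isomerase to oxygen in the endoplasmic reticulum. Ero1l (ENSMUSG00000021831, chr14:45283092-45318572, minus strand) was at 87.7 FPKM in HM_Ctrl and 201 in HM_DFX, and at 31.4 in LM_Ctrl against 258 in LM_DFX. It was the most abundant member in 3 libraries, and in LM_Ctrl it stood second. It was the single member past the threshold in both clones, with folds of 2.29 in 4T1-HM (2.22 to 2.36) and 8.22 in 4T1-LM (7.86 to 8.59). HM_Ctrl exceeded LM_Ctrl by 2.79-fold (2.66 to 2.93).

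Mxi1 encodes a partner of MAX that opposes MYC at their shared DNA sites. Mxi1 (ENSMUSG00000025025, chr19:53310506-53375810, plus strand) was at 11.7 FPKM in HM_Ctrl and 15.2 in HM_DFX, and at 6.35 in LM_Ctrl against 22.6 in LM_DFX. Its 4 values ran in the order of Bnip3l at a lower level. The folds with DFX were 1.30 in 4T1-HM (1.19 to 1.42) and 3.57 in 4T1-LM (3.24 to 3.93), and HM_Ctrl was 1.85-fold above LM_Ctrl (1.66 to 2.06).

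Ankrd37 encodes a small ankyrin repeat protein. Ankrd37 (ENSMUSG00000050914, chr8:45996902-46005707, minus strand) was at 5.94 FPKM in HM_Ctrl and 7.60 in HM_DFX, and at 1.57 in LM_Ctrl against 20.1 in LM_DFX. LM_DFX stood apart from the other 3 libraries. The fold was 12.8 in 4T1-LM (9.22 to 18.2), resting on 38 fragments in LM_Ctrl, and 1.28 in 4T1-HM (1.02 to 1.60). Its responses differed by 2.73 on the log2 scale of FPKM + 1, against 2.60 for Adm, and with a pseudocount of 0.1 by 3.24 against 4.24. It was the only member that differed by 2-fold or more between the clones under DFX, with HM_DFX at 0.379 of LM_DFX (0.318 to 0.449). Lrp2bp, on the opposite strand, shares 349 of the 1539 exon bases of Ankrd37 and was at most 0.432 FPKM. A second opposite-strand gene, Ufsp2, shares 57 of these bases and ranged between 9.05 and 12.3 FPKM. Ufsp2 stood above Ankrd37 in every library except LM_DFX, with 10.1 against 1.57 FPKM in LM_Ctrl. Whether Ufsp2 reads entered the Ankrd37 counts was not tested, as the strand setting is not given. Of the 31-base words of Ankrd37, 21.4% occur in other genes.

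The response to DFX was larger in 4T1-LM than in 4T1-HM for all 8 members, where this held for 56.5% of expressed genes. It was at least 2-fold larger for 7, all but Vegfa, against 5.38% of expressed genes, and for 6 with median-ratio scaling, where Bnip3l was at 0.99 on the log2 scale. The median log2 change of the members was 0.43 in 4T1-HM and 2.30 in 4T1-LM, and over all expressed genes it was -0.10 and -0.04. At any fold, 7 of 8 members were higher with DFX in 4T1-HM and 8 of 8 in 4T1-LM, against 43.7% and 46.8% of expressed genes. The difference between the responses was not tested, since each rests on 1 pair of libraries. With median-ratio scaling the median of all genes in 4T1-HM moved by 0.11, Vegfa and Bnip3 also passed the threshold there, and the expressed genes past it went from 878 higher and 1568 lower to 1128 higher and 1277 lower.

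**Figure D2:**
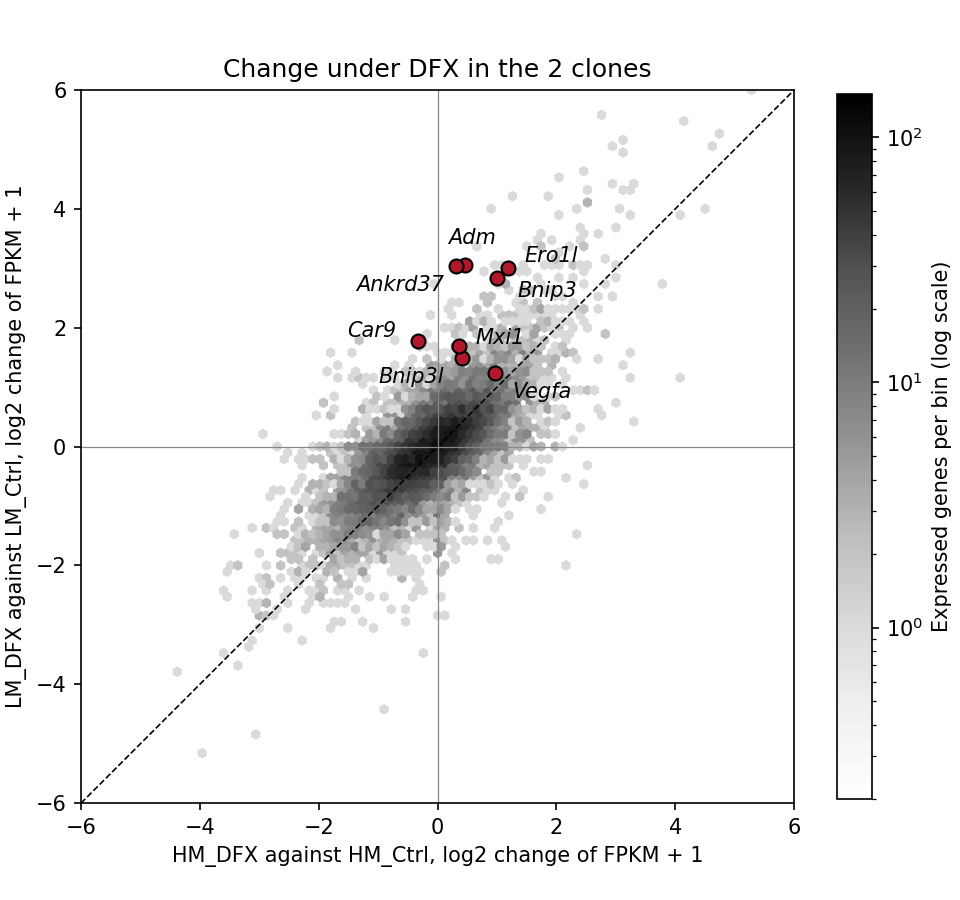
Log2 change of FPKM + 1 with DFX in 4T1-HM (x axis) and in 4T1-LM (y axis) for each expressed gene, as bins shaded by the number of genes on a log scale, with the 8 members as red points. All 8 members lie above the dashed line of equal change, Vegfa nearest to it, and Car9 is the 1 member left of zero on the x axis.

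The same 4 libraries, read between clones, show the members higher in 4T1-HM without DFX and mostly lower there with it. In the controls 8 of 8 were higher in HM_Ctrl than in LM_Ctrl, against 51.4% of expressed genes. Of these, 5 were at least 2-fold higher, Adm, Car9, Bnip3, Ero1l and Ankrd37, where 3.65% of expressed genes were. None was at least 2-fold lower, against 3.15%. With DFX 7 of 8 were lower in HM_DFX than in LM_DFX, against 54.2%, with Car9 the exception. Past 2-fold, 1 was lower (Ankrd37) and 0 were higher, against 5.05% and 3.31% of expressed genes.

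The members' median difference between the clones, 4T1-HM over 4T1-LM, was 1.44 on the log2 scale in the controls and -0.45 with DFX. Of the members, 7 were both higher in HM_Ctrl and lower in HM_DFX than in the matching 4T1-LM library, a pattern of 21.0% of expressed genes. The same 7 had the order LM_DFX, HM_DFX, HM_Ctrl, LM_Ctrl from high to low, which 5.23% of expressed genes had. For Vegfa the last step of that order was within counting error. These comparisons share libraries, so the clone difference and the DFX response of a gene are not separate pieces of evidence.

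**Figure D3:**
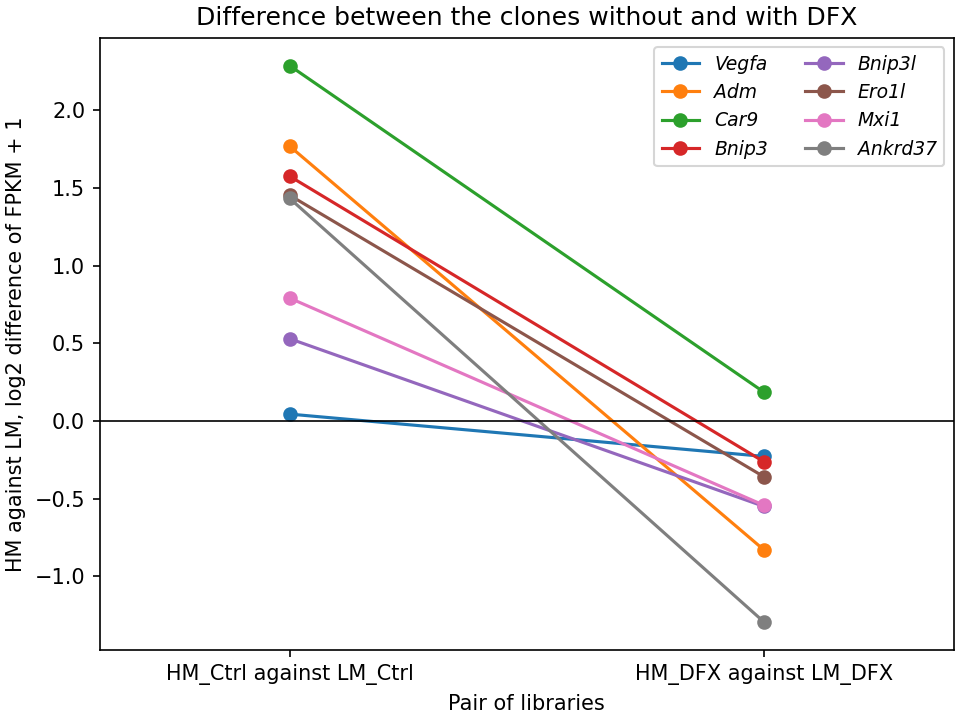
Log2 difference of FPKM + 1 between 4T1-HM and 4T1-LM for each member in the control libraries (left) and in the DFX libraries (right), 1 line per gene. All lines fall from left to right, and all but that of Car9 end below zero.

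Summed over the 8 members, the level was 336 FPKM in HM_Ctrl and 591 in HM_DFX, and at 156 in LM_Ctrl against 761 in LM_DFX. The order of the members by FPKM was close to fixed. In both DFX libraries it ran Ero1l, Bnip3, Bnip3l, Vegfa, Car9, Mxi1, Ankrd37 and Adm. Car9 stood above Vegfa in HM_Ctrl. In LM_Ctrl Bnip3l led, followed by Ero1l, Vegfa and Bnip3. Neighbours whose counting intervals overlapped were Ero1l and Bnip3 in HM_Ctrl, Ero1l with Vegfa, Vegfa with Bnip3 and Car9 with Mxi1 in LM_Ctrl, and Car9 with Mxi1 in LM_DFX.

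Members also paired by the shape of their 4 values. Each gene was centred on its own mean of log2(FPKM + 1), and the root mean square of the remaining difference was 0.10 for Bnip3l with Mxi1, 0.11 for Bnip3 with Ero1l and 0.21 for Adm with Ankrd37. The least alike were Vegfa and Car9, at 0.83. Among 5272 other protein-coding genes with a mean of at least 10 FPKM, members left out, Slc2a1, the glucose transporter GLUT1, was nearest to Bnip3 (0.12) and to Ero1l (0.20). Pfkp, a phosphofructokinase, was nearest to Mxi1 (0.04) and Cyb5r1 to Bnip3l (0.05). Zfp598 was nearest to Vegfa (0.03), Gdpd1 to Car9 (0.22), and Nat6 to both Adm (0.27) and Ankrd37 (0.18). With 4 libraries such likeness is a description only.

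The genes that set HIF activity moved in both directions. Of 7 expressed subunits and oxygen sensors, 0 rose and 2 fell in 4T1-HM, and 3 rose and 0 fell in 4T1-LM. Hif1a, an α subunit, was at 69.1 FPKM in HM_Ctrl and 30.6 in HM_DFX, and at 51.9 in LM_Ctrl against 29.1 in LM_DFX, lower with DFX in both clones. Egln3, a prolyl hydroxylase that is itself a HIF target, was at 85.9 FPKM in HM_Ctrl and 32.8 in HM_DFX, and at 29.8 in LM_Ctrl against 71.7 in LM_DFX. It fell in 4T1-HM and rose in 4T1-LM, and like Car9 it was highest in HM_Ctrl. Its sister Egln1 and Vhl, which targets HIF α for destruction, rose in 4T1-LM with log2 changes of 1.03 and 1.22. Arnt, the constant partner, was at 9.79 FPKM in HM_Ctrl and 14.3 in HM_DFX, and at 9.06 in LM_Ctrl against 18.7 in LM_DFX, and Epas1, which encodes HIF-2α, was at most 0.0479 FPKM.

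Other HIF targets rose more often than they fell in 4T1-LM and moved in both directions in 4T1-HM. Of 33 further expressed targets outside glycolysis, 6 rose and 4 fell in 4T1-HM, and 19 rose and 3 fell in 4T1-LM, with median log2 changes of 0.26 and 1.12. Egln1, Egln3, Pgf and Car12 are among these 33 and are also counted in another list. Ndrg1, a stress-response gene, was at 177 FPKM in HM_Ctrl and 577 in HM_DFX, and at 49.1 in LM_Ctrl against 613 in LM_DFX. Hmox1, the haem-degrading oxygenase, had log2 changes of 2.27 in 4T1-HM and 3.00 in 4T1-LM. P4ha1, a collagen prolyl hydroxylase subunit, had 0.98 and 2.27, and Higd1a, a mitochondrial protein, 1.37 and 2.52. Of 18 expressed glycolytic targets, 1 rose and 1 fell in 4T1-HM, and 9 rose and 0 fell in 4T1-LM, with medians of 0.26 and 1.00. Slc2a1 was at 107 FPKM in HM_Ctrl and 207 in HM_DFX, and at 40.3 in LM_Ctrl against 231 in LM_DFX. Pdk1, which encodes a pyruvate dehydrogenase kinase, rose in 4T1-LM by 1.68 on the log2 scale.

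**Figure D4:**
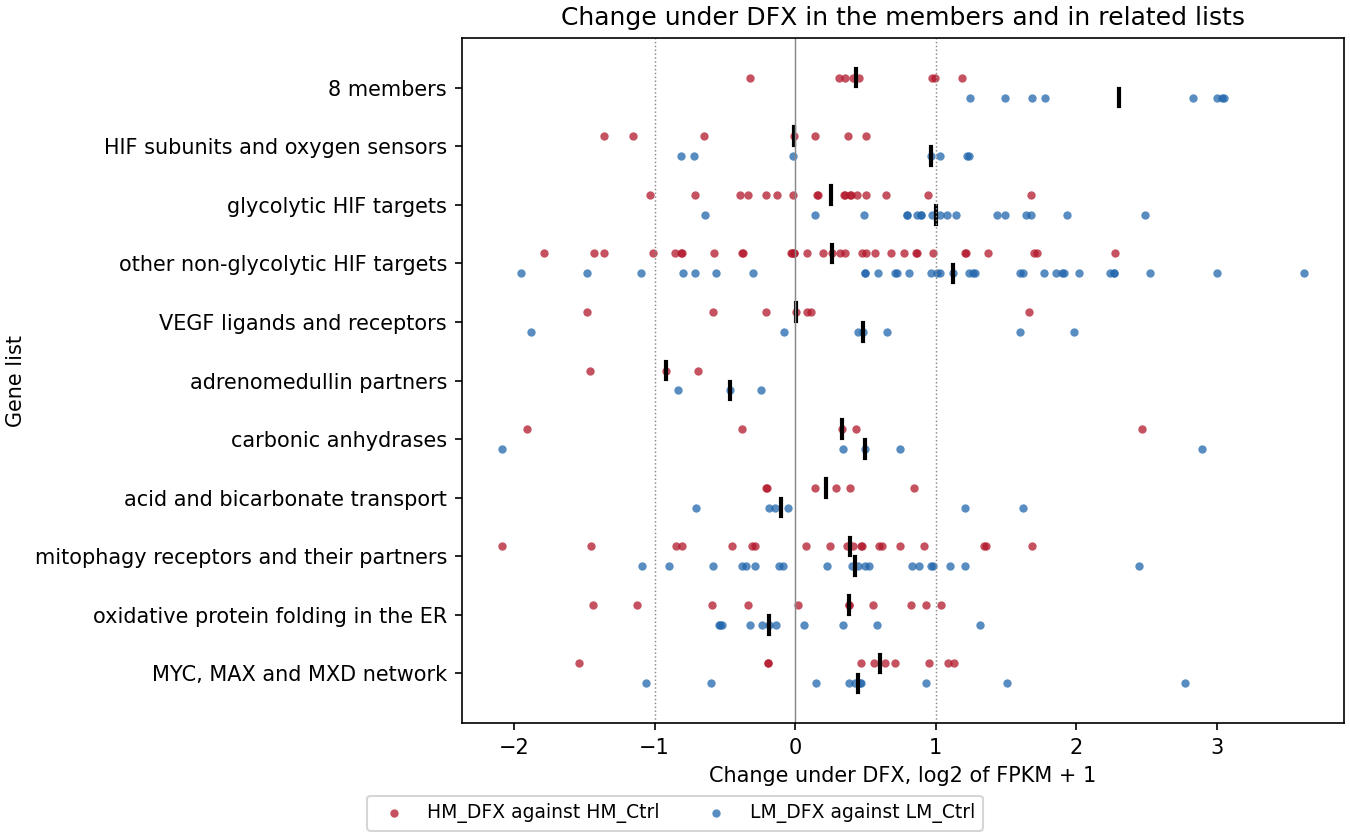
Log2 change of FPKM + 1 with DFX in 4T1-HM (red) and 4T1-LM (blue) for the 8 members and the expressed genes of 10 related lists. Points are genes, black bars are medians and dotted lines mark 2-fold. The members' median is 0.43 in 4T1-HM and 2.30 in 4T1-LM.

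Partners of single members moved in both directions. Of 7 expressed VEGF ligands and receptors other than Vegfa, 1 rose and 1 fell in 4T1-HM, and 2 rose and 1 fell in 4T1-LM. Vegfc, a lymphatic growth factor, rose in both clones (1.66 and 1.99 on the log2 scale), and Nrp1, a co-receptor, fell in both (-1.48 and -1.88). Pgf, a placental growth factor, was at 0.151 FPKM in HM_Ctrl and 0.220 in HM_DFX, and at 3.42 in LM_Ctrl against 12.4 in LM_DFX. Kdr, the main VEGF receptor of endothelium, was at most 0.0154 FPKM. Of 3 expressed adrenomedullin partners, 0 rose and 1 fell in 4T1-HM, and 0 rose and 0 fell in 4T1-LM. At any fold all 3 were lower with DFX in both clones. Calcrl, the adrenomedullin receptor, and its accessory protein Ramp2 stayed under 1 FPKM in all 4 libraries.

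Among the other carbonic anhydrases 5 were expressed, of which 1 rose and 1 fell in each clone. Car6 rose (2.47 and 2.89 on the log2 scale) and Car5b, a mitochondrial isozyme, fell (-1.91 and -2.09). Of 6 expressed acid and bicarbonate transport genes, 0 rose and 0 fell in 4T1-HM and 2 rose and 0 fell in 4T1-LM, among them Bsg, a chaperone of lactate transporters, with a log2 change of 1.62. Of 20 expressed mitophagy genes, 3 rose and 2 fell in 4T1-HM, and 3 rose and 1 fell in 4T1-LM. Sqstm1, an autophagy receptor, rose in both clones (1.68 and 2.44), and Bcl2l1, an inhibitor of cell death that binds BNIP3 family proteins, fell in 4T1-HM (-2.09) and was at -0.58 in 4T1-LM.

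Of 11 expressed genes of oxidative folding, 1 rose and 2 fell in 4T1-HM, and 1 rose and 0 fell in 4T1-LM. P4hb, the disulfide isomerase that Ero1l reoxidises, was at 299 FPKM in HM_Ctrl and 616 in HM_DFX, and at 243 in LM_Ctrl against 606 in LM_DFX, while Ero1lb, the paralog, had log2 changes of 0.93 and 0.58. Of 10 expressed genes of the MYC, MAX and MXD network, 2 rose and 1 fell in each clone. Mxd1, a relative of Mxi1, rose in both (1.09 and 2.77), and Myc had 0.95 in 4T1-HM and 0.93 in 4T1-LM.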

How the data were processed

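RNA-seq was made from cultured 4T1-HM and 4T1-LM cells, 1 library for each of 4 conditions, grouped by their labels. Per the submitters' processing notes, reads were handled with FastQC, Trimmomatic, HISAT2 and featureCounts on mm10. Tool versions and the strand setting are not given in the sources used here, although the libraries were directional. The authors deposited FPKM for 49585 genes, not counts, and used edgeR for their own calls. That test was not repeated, since 1 library per condition gives no spread.

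Changes were log2 ratios of FPKM + 1, over genes that reached 1 FPKM in any library, and changes of 2-fold or more were counted. Fragments were recovered from FPKM with GENCODE M21 exon lengths, which gave whole numbers (within 0.02) in all libraries for 96.8% of 18235 genes. The lengths of Ero1l and Mxi1 were solved from their values, where 4 lengths for Ero1l and 10 for Mxi1 gave whole fragments. The length nearest the longest GENCODE transcript was used, so the fragment numbers and intervals of these genes depend on that pick. Folds in the text are FPKM ratios without a pseudocount, with exact 95% Clopper-Pearson intervals, and levels have Poisson intervals. Both cover counting error only.

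The members and the lists were chosen with earlier results of these data known, the lists were written from general knowledge, and no set test was run. Named genes were the members, up to 4 genes per list with the largest change in either DFX comparison at an FPKM of at least 5, and named partners of members. Alternatives were other pseudocounts, filters, scalings and thresholds, and, added after seeing the data, leaving out members that share over 20% of their 31-base words with other genes. Code was tested on simulated data, in Python 3.11.15 with scipy 1.17.1. A marker gene is not reported here.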

Additional observations from a re-analysis of the deposited data

Results flagged for a closer look

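Genes of the members and named lists that had opposite directions with DFX in the clones are given here. The differences between the clones were not tested, because each value rests on 1 pair of libraries. Genes whose fragments were not recovered were not screened.

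Car9 had a log2 change of -0.32 in 4T1-HM and 1.78 in 4T1-LM, a difference of 2.10. Egln3, the prolyl hydroxylase, had -1.36 and 1.24, a difference of 2.60. Nrp2, a co-receptor for VEGF ligands, had -0.21 and 0.65, a difference of 0.86. Car12, another membrane-bound carbonic anhydrase, had -0.38 and 0.50, a difference of 0.87. For all 4 genes the 4T1-LM response was the higher one.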

How the results depend on the processing

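All 160 log2 values of the members kept their sign under other pseudocounts and scalings. In 4T1-HM the count of members at least 2-fold higher with DFX was 1, and it became 3 with median-ratio scaling or at 1.5-fold, 2 with a pseudocount of 0.1 or none, and 0 at 4-fold. In 4T1-LM it was 8, with 4 at 4-fold. Members 2-fold or more above LM_Ctrl in HM_Ctrl numbered 5, with 1 at 4-fold. Members lower in HM_DFX than in LM_DFX numbered 1, with 2 at 1.5-fold and 0 at 4-fold. The response in 4T1-LM was at least 2-fold above that in 4T1-HM for 7, for 6 with median-ratio scaling (Bnip3l at 0.99), and at least 4-fold for 3. Bnip3, Bnip3l and Ankrd37 share over 20% of their 31-base words with other genes. Without them the counts at 2-fold or more were 5 of 5 (higher with DFX in 4T1-LM), 3 of 5 (higher in HM_Ctrl), 0 of 5 (lower in HM_DFX) and 4 of 5 (larger response). The lower counts reflect which members were left out. Ankrd37, the only member at least 2-fold lower in HM_DFX, is among them, so that count rests on a gene with shared sequence.

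Over all expressed genes, those higher with DFX numbered 2031 in 4T1-HM and 2088 in 4T1-LM at 1.5-fold, and 111 and 180 at 4-fold. Those higher in HM_Ctrl numbered 1329 at 1.5-fold, 42 at 4-fold and 883 with a pseudocount of 0.1, and those lower in HM_DFX than in LM_DFX 1848, 59 and 1183. Adm in LM_Ctrl rests on 6 fragments, so its log2 change in 4T1-LM was 3.05 with a pseudocount of 1 and 5.30 with none. No paired analysis was possible because each condition has 1 library and no replicate numbers. Variation between cultures cannot be estimated from these data.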
